A study of Homo sapiens with 6 samples.

Results

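The interleukin-6 (IL6) family, its receptors, the transcription factor STAT3 and the feedback inhibitor SOCS3 were examined in OVCA433, a line of human high-grade serous ovarian carcinoma. Members were the probe sets of the deposited signal table whose platform annotation names 1 gene symbol from a list of 10 genes (IL6, LIF, IL11, CLCF1, IL6R, IL6ST, LIFR, OSMR, STAT3 and SOCS3). They came to 30 of 54675 probe sets and to 9 of 19775 genes. CLCF1 was not analysed here because no probe set carried its symbol alone in the annotation used. Both groups had 3 Affymetrix U133 Plus 2.0 arrays. Cells were seeded, and after 24 hours the medium was changed to fresh medium without versican in the control group or with versican in the treated group. Versican (VCAN) belongs to the matrix proteoglycans that carry chondroitin sulfate, and was added from outside the cells. RNA was taken at 48 hours, in a protocol whose wording on the harvest speaks of transfection, which no other label mentions. Both groups grew in RPMI1640 with 10% fetal bovine serum, so serum was present in the controls too. The samples of a group are called independent, but no label says that they came from separate cultures or days, so the p-values rest on a spread between samples that may be technical. All come from 1 cell line.

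Cytokines of the IL6 family share the signal-transducing receptor chain gp130, which IL6ST encodes. IL6 and IL11 first bind a private alpha receptor (IL6R or IL11RA), whereas LIF signals through a pair of gp130 and LIFR, and oncostatin M through gp130 with OSMR or LIFR. The assembled receptors activate JAK kinases, which phosphorylate STAT3. Phosphorylated STAT3 enters the nucleus and induces target genes, among them SOCS3, which binds gp130 and JAKs and shuts the signal down. In ovarian cancer IL6 is known as a cytokine of ascites fluid. The arrays measure transcripts and carry no information on STAT3 phosphorylation or on secreted protein.

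Signals were MAS5 values on a linear scale, scaled to a common trimmed mean on every array, and differences were tested on log2(signal + 16) with limma. Arrays of the same group correlated at 0.993 to 0.995 over the tested genes and arrays of different groups at 0.969 to 0.972. Of 9887 tested genes, 41.6% passed at an adjusted p of 0.05, 21% higher and 20.6% lower with versican. Epithelial and serous markers were present: EPCAM, KRT7, KRT8, KRT18, KRT19, PAX8 and MUC16 all lay above the expression filter, and WT1 was near 0 (3.1 to 15.0 in control and 22.9 to 36.8 in versican arrays). Markers of other cells were low. The summed signal of 5 measured leukocyte markers ran from 849.9 to 891 in control and from 1046 to 1115 in versican arrays, most of it LAPTM5, which rose by 0.31 on the log2 scale (SE 0.06, limma adjusted p = 0.0032). PTPRC, which defines leukocytes, had signals of only 12.5 to 16.3 in control and 19.0 to 30.4 in versican arrays. The summed signal of 6 fibroblast markers was 229 to 321 in control and 128 to 232 in versican arrays, that of 4 endothelial markers was 226 to 378 and 222 to 315, and that of 4 mesothelial markers was 224 to 336 and 252 to 377. None of these 14 genes passed the filter. Among the mesothelial markers LRRN4 went from between 39.2 and 67.1 to between 135 and 186, and among the fibroblast markers LUM went from between 61.4 and 124 to between 27.9 and 45.3, both without overlap. PAX8, a transcription factor of serous tumours, rose by 0.90 on the log2 scale and KRT19 fell by 0.21. The part of these markers in the results that follow was not tested.

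Of the 9 member genes measured, 8 passed the expression filter (upper 50% of genes by mean signal over all 6 arrays), and IL6R did not. In the limma fit 5 of these 8 passed: IL6 and LIF rose, and LIFR, SOCS3 and OSMR fell. IL11, IL6ST and STAT3 did not pass. The count of 5 among 8 stands beside the 41.6% called among all tested genes, and nothing is read from a share over so few genes. The median log2 fold change of the 8 genes was -0.15, against 0.01 for all tested genes. Groups did not overlap for 5 of the 8 tested genes, where 52.2% of all tested genes had groups without overlap.

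**Figure D1:**
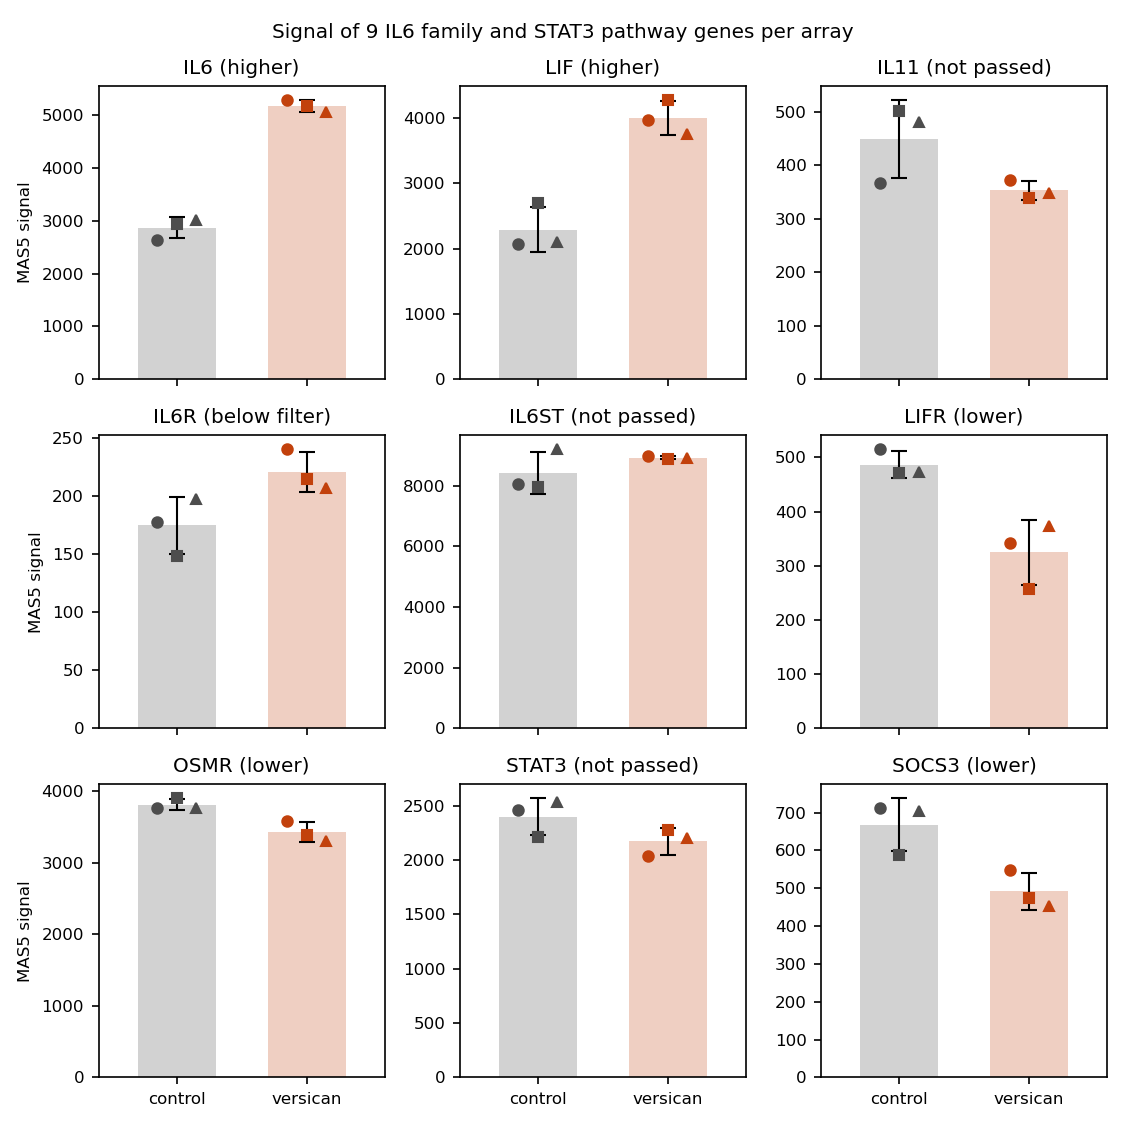
MAS5 signal (linear scale, each panel with its own axis from 0) of the probe set used for each of 9 genes, in 3 control and 3 versican arrays. Bars are means, error bars are SD, and circles, squares and triangles are replicates 1, 2 and 3. IL6, LIF and IL6R (below the expression filter) lie higher in every versican array than in any control array, while LIFR, OSMR and SOCS3 lie lower.

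Among the ligands, IL6, an inflammatory cytokine of tumour and immune cells, had signals of 2647, 2941 and 3024 in the control arrays and 5293, 5178 and 5072 in the versican arrays. Every versican array was above every control array. The mean signal was 2870.3 ± 198 in the control group and 5181 ± 110.4 in the versican group (SD over 3 arrays each), a 1.80-fold rise (log2 0.85, SE 0.06, limma adjusted p = 2.8e-06). In all, 192 of the 9887 tested genes, IL6 included, had a log2 fold change at least as high. The annotation gave IL6 1 probe set, so the rise has no second measurement within the gene. Without each array in turn the log2 fold change lay between 0.79 and 0.89.

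LIF, leukaemia inhibitory factor, signals through LIFR and gp130. Its signals were 2072, 2695 and 2106 in control and 3976, 4277 and 3758 in versican arrays. The groups did not overlap, although control replicate 2 stood above the other control arrays. The mean was 2291 ± 350.3 in the control group and 4004 ± 260.5 in the versican group (SD over 3 arrays each), a 1.75-fold rise (log2 0.81, SE 0.10, limma adjusted p = 9.6e-05). LIF also had 1 probe set. Leaving out control replicate 2 or any other single array gave between 0.74 and 0.93 on the log2 scale.

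IL11, a gp130 cytokine that acts through IL11RA, did not follow these ligands. Its signals were 367, 502 and 480.5 in control and 374, 339 and 348 in versican arrays. Control replicate 1 lay among the versican values, so the groups overlapped. The log2 fold change was -0.32 (SE 0.12, 95% confidence interval -0.60 to -0.05, limma adjusted p = 0.061). Without control replicate 1 it was -0.46 and passed (limma adjusted p = 0.0070). The second IL11 probe set lay below the filter, with means of 24.1 ± 22.1 and 28.0 ± 1.8 (SD, n = 3 each). Averaging the log2 values of both probe sets gave -0.03 (limma adjusted p = 0.90).

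Among the probe sets used for the genes, that of IL6 differed most, and its promoter is shown first. Beside it stand promoters of LIFR and OSMR, the receptor genes that fell and that follow each other among the protein-coding genes of chromosome 5. Sequences come from RefSeq (GRCh38.p14) and hold 250 bases before and 50 after an annotated transcription start, 5′ to 3′ on the gene's strand. Capitals mark matches to a motif, and both strands were searched. LIFR has 3 annotated starts in that table and the arrays do not tell them apart. The one shown is the first listed.

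IL6, chr7:22726950-22727249, plus strand: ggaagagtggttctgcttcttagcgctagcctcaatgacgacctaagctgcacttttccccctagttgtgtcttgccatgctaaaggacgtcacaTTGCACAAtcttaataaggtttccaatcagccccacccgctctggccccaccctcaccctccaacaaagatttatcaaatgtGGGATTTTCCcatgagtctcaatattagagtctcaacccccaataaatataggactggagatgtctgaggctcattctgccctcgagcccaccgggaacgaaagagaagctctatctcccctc

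LIFR, chr5:38595356-38595655, minus strand: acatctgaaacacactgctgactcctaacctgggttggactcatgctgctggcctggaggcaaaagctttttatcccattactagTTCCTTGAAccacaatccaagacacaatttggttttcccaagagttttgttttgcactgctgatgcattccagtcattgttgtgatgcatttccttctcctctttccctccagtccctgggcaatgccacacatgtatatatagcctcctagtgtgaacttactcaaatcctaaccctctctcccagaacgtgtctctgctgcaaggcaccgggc

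OSMR, chr5:38845762-38846061, plus strand: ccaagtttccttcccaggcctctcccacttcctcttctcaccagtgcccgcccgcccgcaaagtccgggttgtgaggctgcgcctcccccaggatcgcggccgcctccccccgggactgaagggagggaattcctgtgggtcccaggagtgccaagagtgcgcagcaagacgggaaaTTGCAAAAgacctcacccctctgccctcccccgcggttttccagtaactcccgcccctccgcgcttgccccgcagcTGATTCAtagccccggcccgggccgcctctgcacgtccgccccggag

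Motifs searched were the STAT element TTCNNNGAA, the NF-kB consensus, the AP-1-like pattern TGANTCA, the cyclic AMP element TGACGTCA and the C/EBP motif TTGCNNAA. N stands for any base, also in the middle of the AP-1-like pattern. No matches overlapped in the members. IL6 held 1 match to the NF-kB consensus, GGGATTTTCC, with its first base 73 bases before the start, and 1 to the C/EBP motif, TTGCACAA, at 155 bases before the start. NF-kB and C/EBP factors are well known regulators of IL6. Of 35116 promoter windows of this length, 5.91% held the NF-kB consensus and 10.5% the C/EBP motif. LIFR held a STAT element, TTCCTTGAA, at 165 bases before the start shown, and another, TTCATCGAA, at 182 bases before its second listed start, which also held a C/EBP match. STAT elements were in 7.66% of all windows. OSMR held a C/EBP match, TTGCAAAA, 73 bases before its start and a match to the AP-1-like pattern, TGATTCA, just after it. That pattern was in 7.71% of windows and also in those of IL11 and IL6R, there as TGAGTCA. The full cyclic AMP element TGACGTCA, in 1.85% of windows, was in none of the 11 member windows. Partial forms of it were not searched. The windows of IL6ST, STAT3, SOCS3 (2 starts) and the third listed start of LIFR held none of the motifs. Promoters were matched for 8 of the 10 genes. A match describes letters and does not show that a factor binds.

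Among the receptors, IL6ST, which encodes the shared chain gp130, did not pass. The probe set with the highest signal gave 8045, 7967 and 9205 in control and 8965, 8862 and 8922 in versican arrays. The versican arrays lay close together and within the control range. The log2 fold change was 0.09 (SE 0.06, 95% confidence interval -0.05 to 0.22, limma adjusted p = 0.28). All 7 IL6ST probe sets had values above 0, between 0.04 and 0.28 on the log2 scale, but none of the 5 above the filter passed when every probe set was tested as its own unit (limma adjusted p from 0.18 to 0.79).

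IL6R, the alpha chain that gives a cell its response to free IL6, was weakly detected. Its highest probe set had signals of 178, 149 and 198 in control and 241, 215 and 207 in versican arrays. The groups did not overlap, but the gap between them was narrow. The log2 difference was 0.32 (two-sided exact permutation p = 0.10, as low as 3 against 3 arrays can go), and with no expression filter the limma adjusted p was 0.21. The second IL6R probe set gave 0.14, and the third was near 0 in every array (1.8 to 12.7).

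LIFR, the receptor chain for LIF, fell. Signals at the probe set used were 515, 471 and 474 in control and 342, 258 and 374 in versican arrays. All versican arrays were below all control arrays, and versican replicate 2 was the lowest. The mean was 487 ± 24.9 in the control group and 325 ± 60.2 in the versican group (SD over 3 arrays each), a 1.49-fold fall (log2 -0.58, SE 0.13, limma adjusted p = 0.0060). A second LIFR probe set did not overlap between groups either (211, 222 and 222 in control, 149.6, 164.5 and 206 in versican arrays), with a log2 fold change of -0.32 that did not pass (limma adjusted p = 0.14 over probe sets). The other 3 LIFR probe sets were dimmer and gave -0.12, -0.08 and 0.08. When the log2 values of all LIFR probe sets were averaged the gene did not pass (log2 -0.20, limma adjusted p = 0.27).

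OSMR, the chain that pairs with gp130 for oncostatin M, gave unlike answers at its 3 probe sets. The one with the highest signal had 3765, 3899 and 3759 in control and 3579, 3390.2 and 3307 in versican arrays. These groups did not overlap, but the step was small, 1.11-fold lower (log2 -0.15, SE 0.05, limma adjusted p = 0.032 over genes). The call was lost without control replicate 2 or 3 and without versican replicate 2 or 3 (limma adjusted p = 0.091, 0.059, 0.074 and 0.12), and in the test over probe sets (0.052). When the log2 values of all OSMR probe sets were averaged the gene passed (log2 -0.41, limma adjusted p = 0.0014), a mean over unlike probe sets.

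Probe set 1554008_at of OSMR had 1020.5, 1009 and 1012 in control and 581, 545 and 374 in versican arrays. The control arrays were almost equal, and every versican array was far below them. This was a 2.03-fold lower signal (log2 -1.02, SE 0.14, limma adjusted p = 0.00026 over probe sets). The third OSMR probe set, 205729_at, overlapped between groups, with means of 477 ± 50.2 and 461 ± 6.2 (SD, n = 3 each). Within arrays, the log2 ratio of 1554008_at to the brightest OSMR probe set was 0.87 lower with versican (SD 0.04 in control, 0.29 in versican). The two-sided exact permutation p was 0.10, the lowest possible. This ratio was taken for OSMR only, with the probe set values in view, so it is no separate support for the difference. The same ratio for 205729_at differed by 0.11 (exact permutation p = 0.40). Which transcripts each probe set reads was not established here.

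**Figure D2:**
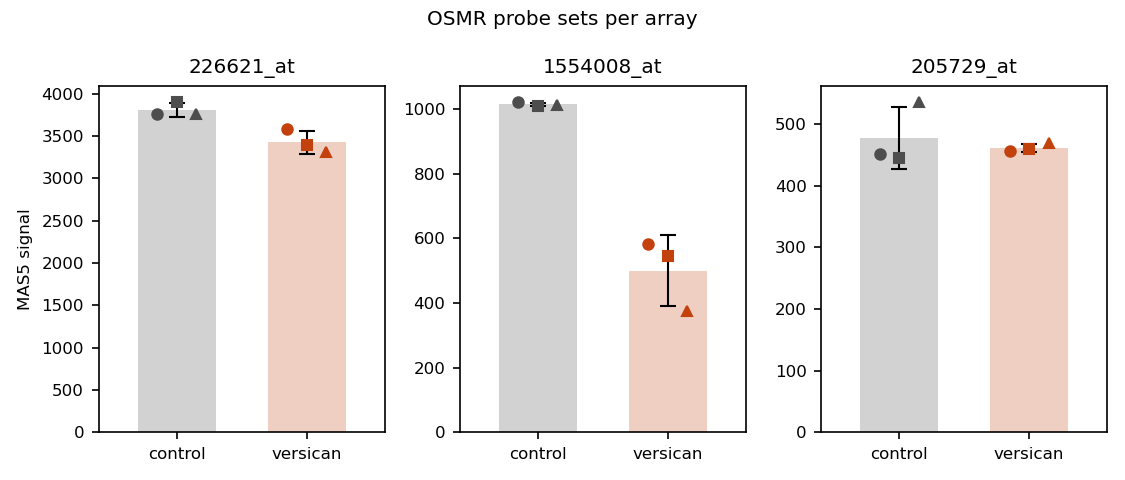
MAS5 signal (linear, axis from 0) of the 3 OSMR probe sets in 3 control and 3 versican arrays, with bars for means, error bars for SD and circles, squares and triangles for replicates 1, 2 and 3. The middle probe set, 1554008_at, drops to 374 to 581 from about 1009 or more, while the others differ little.

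STAT3, the transcription factor at the end of the pathway, did not pass at any probe set. At the probe set used, signals were 2458, 2211 and 2533 in control and 2037, 2281 and 2204 in versican arrays. Control replicate 2 lay among the versican arrays. The log2 fold change was -0.14 (SE 0.07, 95% confidence interval -0.29 to 0.01, limma adjusted p = 0.12). It passed only when control replicate 2 was left out (log2 -0.20, limma adjusted p = 0.044). The other 2 STAT3 probe sets above the filter gave -0.17 and 0.02.

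SOCS3, which STAT3 induces and which inhibits gp130 and JAK signalling, fell. Its brightest probe set had 711, 588 and 705 in control and 548, 474 and 454 in versican arrays. All versican arrays lay below all control arrays, control replicate 2 being the nearest. The mean was 668 ± 69.7 in the control group and 492 ± 49.6 in the versican group (SD over 3 arrays each), a 1.35-fold fall (log2 -0.43, SE 0.11, limma adjusted p = 0.0084). All 4 SOCS3 probe sets had values below 0, from -0.76 to -0.36 on the log2 scale, and 3 of them did not overlap between groups. Besides the brightest, 206359_at passed over probe sets (-0.76, limma adjusted p = 0.046), though its groups overlapped at 104 in control and 105 in versican arrays and the call was lost with no filter (0.11).

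Over all 30 member probe sets, 22 lay above the filter on probe sets and 6 of these passed, 2 higher (IL6 and LIF) and 4 lower (LIFR, OSMR and 2 of SOCS3). Among all 27306 probe sets tested, 27.8% passed, 13.6% higher and 14.1% lower, so the members' 6 of 22 was near the background share. Groups did not overlap for 10 of the 30 member probe sets and for 26.9% of all probe sets.

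**Figure D3:**
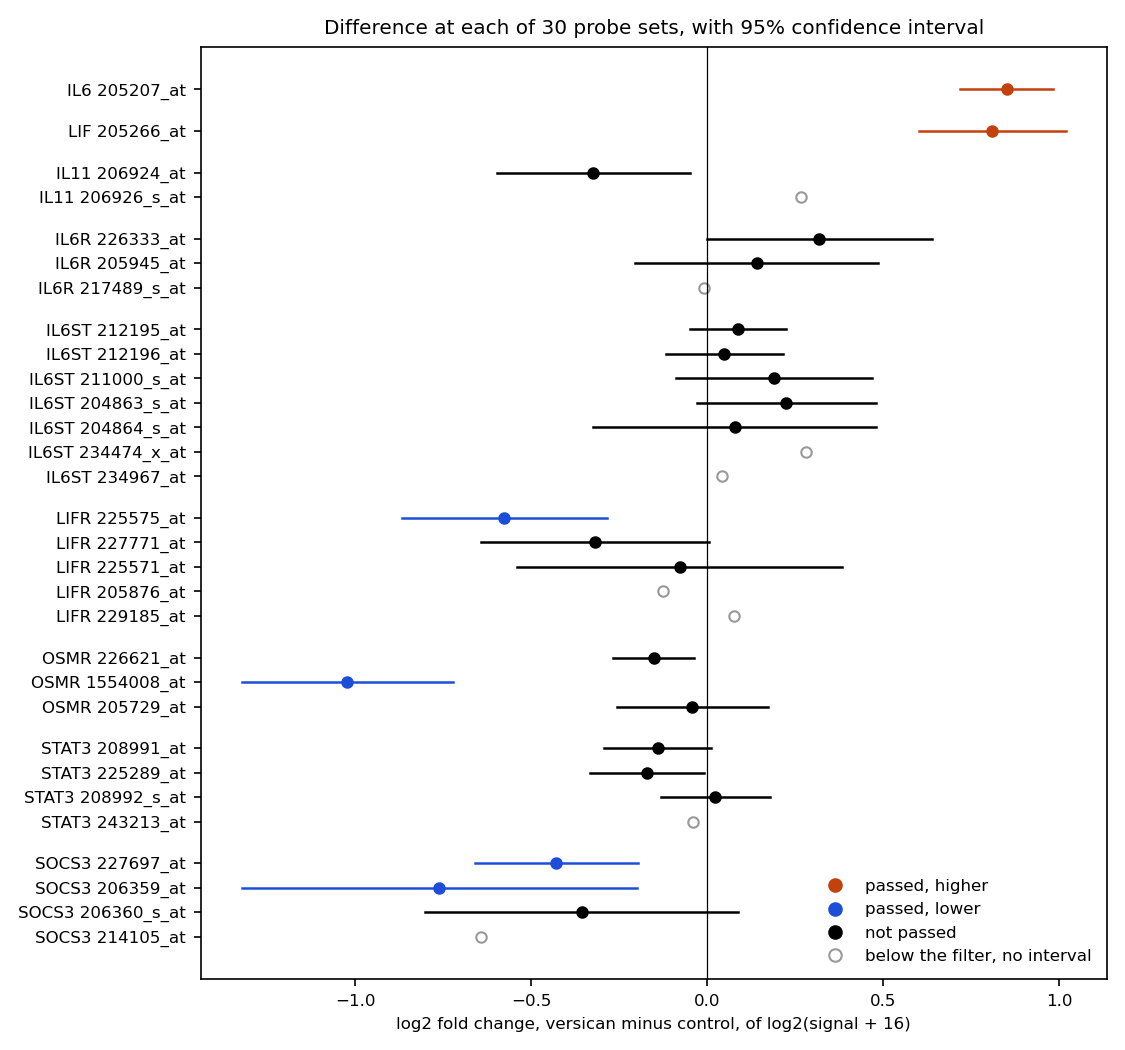
Log2 fold change (versican minus control, of log2(signal + 16)) at each of the 30 member probe sets, with lines for the 95% confidence interval of the fit over probe sets and open circles for probe sets below its filter. IL6 and LIF stand to the right of 0, all 4 SOCS3 probe sets to the left, and 1554008_at of OSMR is the lowest at -1.02.

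The gene whose log2 values over the 6 arrays were most like those of IL6 was ZC3H15 (Pearson r 0.999), followed by CXCL8 and NUP35 (0.999 each). ZC3H15 rose by 0.23 and NUP35, a nuclear pore protein, by 0.55 on the log2 scale. ZC3H15 lost its call when its probe sets were averaged (log2 0.16, limma adjusted p = 0.25). CXCL8, the chemokine interleukin-8, had signals of 11185, 12356 and 13385 in control and 24293, 24259 and 23484 in versican arrays, and rose 1.95-fold (log2 0.97, SE 0.07, limma adjusted p = 3.3e-06). These points are 6 arrays in 2 groups, and 124 tested genes correlated with IL6 above 0.99.

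Beyond the members, 74 further genes were listed in 7 groups, of which 66 were measured and 45 tested. Of these 45, 10 rose and 15 fell, beside 41.6% called, 21% higher and 20.6% lower, among all tested genes. Those shares are the background for each group below. The other ligands and receptors of the family were mostly below the filter (8 of 9 measured). IL27RA, a receptor chain for interleukin-27, was the only one tested and rose from 948 ± 29.8 to 1192 ± 98.0 (SD, n = 3 each; log2 0.32, SE 0.07, limma adjusted p = 0.0058). Its call was lost when its probe sets were averaged (log2 0.20, limma adjusted p = 0.32). IL11RA, the alpha receptor for IL11, had signals of 219.9, 244 and 208 in control and 172, 124 and 139.6 in versican arrays, and OSM, oncostatin M itself, 51.8, 46.2 and 64.5 against 19.4, 37.8 and 34.1. Neither overlapped between groups (both picked with their values in view; two-sided exact permutation p = 0.10 each, the lowest possible). With no expression filter IL11RA passed (log2 -0.59, limma adjusted p = 0.033) and OSM did not (log2 -0.61, limma adjusted p = 0.16).

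Of 7 tested signal transducers, 2 rose and none fell, beside 41.6% called among all tested genes. Nothing is read from a share over so few genes. JAK1, the main kinase bound to gp130, rose 1.10-fold (log2 0.14, SE 0.05, limma adjusted p = 0.046), and PTPN11, the phosphatase SHP2 that links gp130 to RAS and ERK, rose 1.11-fold (log2 0.15, SE 0.05, limma adjusted p = 0.027). Both were small, and neither passed with no expression filter, with no intensity trend or with averaged probe sets. JAK1 passed in 1 of the 6 fits that left out an array (without control replicate 3), and PTPN11 in 1 (without control replicate 1). With the replicate number as a block JAK1 did not pass (limma adjusted p = 0.075). TYK2, STAT5B, GAB1, GRB2 and SOS1 did not pass, with log2 fold changes from -0.25 to -0.06, and JAK2 and STAT5A lay below the filter.

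Of 7 other inhibitors tested, 2 fell and none rose, where 20.6% of all tested genes fell. CISH, a SOCS family protein, had means of 309.8 ± 15.5 in the control group and 202 ± 6.5 in the versican group (SD over 3 arrays each), a 1.49-fold fall (log2 -0.58, SE 0.11, limma adjusted p = 0.0020). PIAS3, an inhibitor of STAT3 binding to DNA, fell 1.25-fold (log2 -0.32, SE 0.06, limma adjusted p = 0.0017; picked with its value in view). Neither had a value when _x_at and _s_at probe sets were left out. SOCS2 did not pass (log2 0.04, limma adjusted p = 0.60), and SOCS1 lay below the filter. PIAS1 did not pass either, although its groups did not overlap (log2 -0.17, limma adjusted p = 0.080). Nor did PTPN1, PTPN2 and PTPN6, with log2 fold changes from -0.01 to 0.03.

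Genes known as STAT3 targets moved both ways: of 17 tested, 4 rose and 8 fell, where 21% of all tested genes rose and 20.6% fell. The median log2 fold change of the 17 was -0.20 against 0.01 for all tested genes. The genes were listed with earlier results known, so nothing particular to targets is read from these shares. The largest fall was that of JUNB, an AP-1 subunit of the immediate response to IL6. Its signals were 1409.8, 1593 and 1864 in control and 756, 843 and 1052 in versican arrays, without overlap, 1.83-fold lower (log2 -0.87, SE 0.13, limma adjusted p = 0.00040). BCL6, a transcriptional repressor, fell from 926 ± 14.3 to 591 ± 100.3 (SD, n = 3 each; log2 -0.65, SE 0.11, limma adjusted p = 0.0012). IRF1, PIM1, VEGFA, FOS, ZFP36 and CEBPD also fell, by 0.48, 0.44, 0.44, 0.44, 0.41 and 0.22 on the log2 scale (picked with their values in view). They encode an interferon-regulated transcription factor, a survival kinase, an angiogenic growth factor, an AP-1 subunit, an mRNA-destabilising protein and a C/EBP factor. CEBPD lost its call when its probe sets were averaged (log2 -0.14, limma adjusted p = 0.29), without control replicate 3 (0.071) and without versican replicate 1 (0.073).

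The targets that rose were BIRC5, MYC, CEBPB and CCND1. BIRC5, survivin, is also a gene of cell division, and rose 2.09-fold (log2 1.06, SE 0.05, limma adjusted p = 2.7e-07). MYC had signals of 2553, 2893 and 2791 in control and 3898, 5009.8 and 3764 in versican arrays, without overlap, and rose 1.52-fold (log2 0.61, SE 0.10, limma adjusted p = 0.00081). CEBPB, a C/EBP factor that acts on IL6, and CCND1, cyclin D1, rose by 0.23 and 0.21 (picked with their values in view). MCL1, IL4R, BCL2L1, TIMP1 and SBNO2 did not pass.

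Acute phase genes, which IL6 induces in liver cells, were weakly detected: 9 of 10 measured lay below the filter, and SERPINA3, antichymotrypsin, did not pass (691 ± 74.0 in control, 604 ± 108.2 in versican, SD, n = 3 each; limma adjusted p = 0.25). Of 8 tested regulators of IL6 transcription or mRNA stability, 3 rose and 3 fell, where 41.6% of all tested genes passed. FOSL1, an AP-1 subunit, had means of 894 ± 88.7 in the control group and 1831 ± 200.5 in the versican group (SD over 3 arrays each), a 2.03-fold rise (log2 1.02, SE 0.09, limma adjusted p = 1.7e-05). ELAVL1, the mRNA-stabilising protein HuR, and NFKB1, the p50 precursor, rose by 0.35 and 0.33, while NFKBIZ, a nuclear cofactor needed for IL6 induction, JUN and RELA fell by 0.26, 0.20 and 0.19 (all picked with their values in view). ELAVL1 gave -0.032 when its probe sets were averaged, and NFKBIZ then did not pass (limma adjusted p = 0.058). RELA and JUN were close to the threshold in the main fit (limma adjusted p = 0.041 and 0.039). They passed with averaged probe sets (0.011 and 0.046) and with quantile normalization (0.046 and 0.0016). Both lost their calls with no filter (0.070 and 0.076), with median centring (0.052 and 0.053) and with no intensity trend (0.072 and 0.076). RELA also lost it without control replicate 1 or 2 and without versican replicate 2 or 3 (limma adjusted p from 0.057 to 0.15) and with array weights (0.066). JUN lost it without control replicate 2 or 3 and without versican replicate 1 or 3 (limma adjusted p from 0.10 to 0.14), and without _x_at and _s_at probe sets (0.11), where RELA and NFKBIZ had no value. Of 4 genes of receptor shedding, ADAM10 and ADAM17, proteases that release soluble IL6R, fell by 0.25 and 0.16 on the log2 scale (limma adjusted p = 0.015 and 0.033), and RHBDF1 and RHBDF2, which traffic ADAM17, did not pass. ADAM17 lost its call with no filter (0.061), with no intensity trend (0.073), with averaged probe sets (0.074), and without control replicate 2 or 3 or versican replicate 1 or 3 (limma adjusted p from 0.073 to 0.12).

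**Figure D4:**
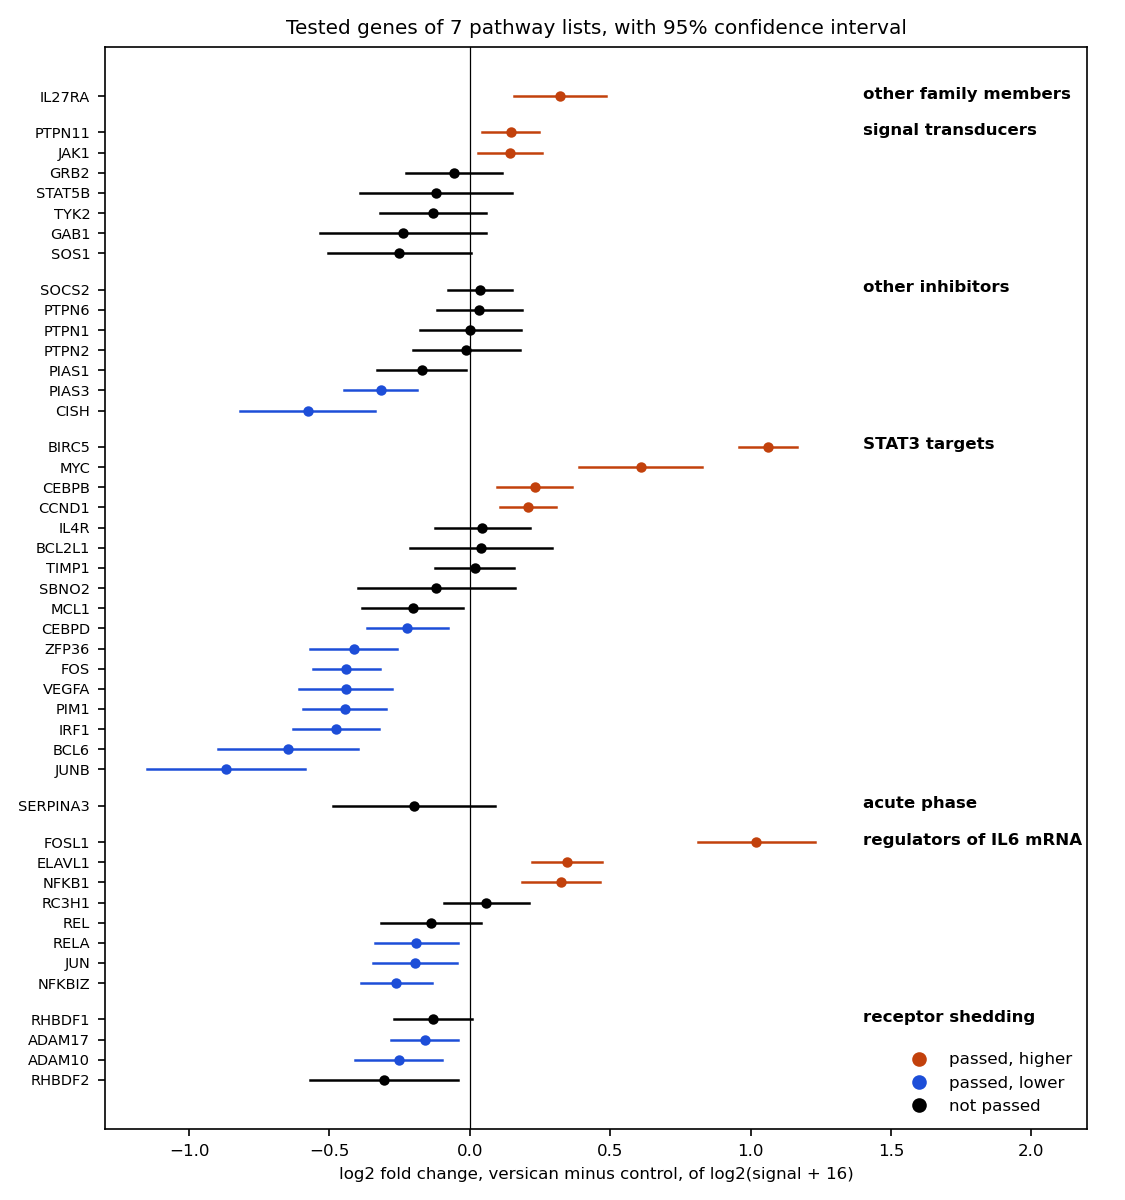
Log2 fold change (versican minus control, of log2(signal + 16)) of the 45 tested genes of the 7 pathway groups, with lines for the 95% confidence interval and colour for the call at an adjusted p of 0.05. JUNB is the lowest at -0.87, and BIRC5 (1.06) and FOSL1 (1.02) are the highest.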

How the data were processed

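Total RNA (100 ng per sample) from 3 control and 3 versican samples was labelled and hybridised to Affymetrix U133 Plus 2.0 arrays. The deposited intensity values are linear probe set signals. Per the submitters' processing notes, the authors computed them with MAS5. Its version, target and detection calls are not given in the sources used here. On every array the 2% trimmed mean was 500.1, and median signals were 62.8 to 75.8.

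Symbols were taken from RefSeq through the gene identifier, whether or not they differed, for 41037 of 41091 non-control probe sets with 1 symbol. No genome was used. Values were tested as log2(signal + 16), which understates changes of dim genes, with R 4.3.3 and limma 3.58.1 (lmFit, eBayes with intensity trend, two-sided, Benjamini-Hochberg at 0.05). Each gene was represented by its probe set of highest mean, and the upper 50% of genes were tested (9887, lowest mean signal 201). A second fit took each probe set as a unit (27306 tested). The code was tested on simulated data. The number of arrays limits the precision.

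Members and lists were chosen with earlier results of these data known. Named genes were all members, list genes that passed by at least 0.5 (otherwise the 2 with the smallest p), and the 3 genes most like the member with the largest change. Other list genes that passed, and IL11RA and OSM, are marked as picked with their values in view. Single cell type markers were also named with their values in view. The deviations of same-numbered arrays correlated at 0.119, -0.0192 and -0.0901, and replicate numbers were not taken to pair samples. Alternatives were other pseudocounts (1 and 64), filters, normalizations, trends and array weights, probe set choices, the replicate block and leaving out each array.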

Additional observations from a re-analysis of the deposited data

How the results depend on the processing

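Across these alternatives IL6 and LIF passed in every fit, with log2 fold changes of 0.79 to 0.89 and 0.74 to 0.93. No member gene changed direction: 139 of the members' values under an alternative kept their side of the threshold, 7 lost it and 3 gained it. Of the other named genes' values 485 kept it, 50 lost it and 1 changed direction. JAK1, PTPN11, RELA, JUN and ADAM17 hold most of the lost calls. With a stricter filter on mean signal 2421 genes passed in place of 4117, and 3 members in place of 5, because LIFR and SOCS3 were not tested there. OSMR passed with the mean of its probe sets (log2 -0.41, limma adjusted p = 0.0014). It lost its call with no filter and with no intensity trend (log2 -0.15 in both), and leaving out single arrays gave -0.18 to -0.13. LIFR lost it with the mean of its probe sets (-0.20). IL11 passed with array weights (-0.35), and leaving out single arrays gave -0.46 to -0.24. With the mean of its probe sets IL11 was -0.03 (limma adjusted p = 0.90). STAT3 ranged from -0.20 to -0.10 when single arrays were left out, and gave -0.08 with the mean of its probe sets. ELAVL1 turned to -0.032 with the mean of its probe sets. The causes were not tested. With the replicate number as a block, 3973 genes and the same count of 5 members passed (LIF 0.81, limma adjusted p = 4.9e-05), and the block changed no call of a member gene. It ended the call of JAK1 (limma adjusted p = 0.075) and of no other named gene. IL6R has no value in the main fit because it lay below the filter.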
